A study of Mus musculus with 8 samples.

Results

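Cell adhesion genes typical of epithelium and of mesenchyme were followed in mandibular molar tooth germs of mouse embryos. Of the 18193 genes with a probe set of their own on the array, 8 were chosen by name, though with earlier results of these data known. Of these, 6 stand for epithelial adhesion (Cdh1, Cdh3, Epcam, Dsp, Jup and Pkp1) and 2 for mesenchymal adhesion (Cdh2 and Cdh11). The platform annotation names exactly 1 of these genes for 14 of the 45101 probe sets, and all 14 probe sets and all 8 genes passed the filter on low values. Pregnant ICR mice, an outbred stock, had been given a single intraperitoneal injection at embryonic day 14, and the germs were taken 24 hours later. The 4 groups had 2 arrays each: 5E1, an antibody that binds the Shh protein (10 mg/kg); 40-1a, the control antibody, which recognises β-galactosidase (10 mg/kg); cyclopamine, which blocks the Hedgehog signal transducer Smo (10 mg/kg); and PBS (1 ml). The labels call the 2 arrays of a group biological replicates but do not say whether their embryos came from separate litters, so each p-value here reflects only how far these samples spread, part of which may be technical. The vehicle of cyclopamine is not stated in the labels.

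Cadherins are transmembrane proteins that bind a like cadherin on the next cell, and their cytoplasmic tails are tied through catenins to actin. Desmosomes are a second kind of junction, in which plaque proteins link desmosomal cadherins to keratin filaments. Cdh1 (E-cadherin) and desmosomes hold epithelial sheets together, whereas Cdh2 (N-cadherin) and Cdh11 (OB-cadherin) are typical of mesenchymal cells. A molar germ at this age is a folded epithelium around and above a condensed mesenchyme, so its whole-germ RNA holds both kinds of adhesion gene. In such bulk RNA, fewer cells of a type and less RNA per cell cannot be told apart.

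The arrays did not group by injection. Clustered on all genes tested other than the 8 genes and the listed adhesion genes, they fell into 3 clusters. The first (cluster 1) joined the replicate 1 arrays of PBS and of both antibodies. Cluster 2 joined the replicate 2 arrays of cyclopamine and of both antibodies. Cluster 3 took what remained, namely PBS replicate 2 with cyclopamine replicate 1. The labels name no batch that goes with these clusters. The antibody comparison had an array of each group in clusters 1 and 2, while cyclopamine and PBS met only in cluster 3. The treatments were checked on Ptch1, which encodes the receptor for Hedgehog ligands and is itself induced by the signal, and on Gli1, a transcription factor that is also a target. Between 5E1 and 40-1a, Ptch1 differed by -2.31 (log2, SE 0.30, limma adjusted p = 0.969, and 0.0011 with the array clusters as a block) and Gli1 by -2.22 (SE 0.40, 0.0017 with that block). The clusters were drawn from these same arrays, with Ptch1 and Gli1 among the genes used, so the p-values with that block are not an independent test. Between cyclopamine and PBS, Ptch1 differed by -0.27 (SE 0.30) and Gli1 by 0.08 (SE 0.40), so neither target showed a detectable decrease. The term blocking agents is used below for what 5E1 and cyclopamine are known to do, not for a measured effect.

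For each of the 8 adhesion genes, most of the variance lay between the 2 arrays of a group rather than between injections. Throughout, signals are MAS5 values on a linear scale, differences are on the scale of log2(signal + 9), and levels of different probe sets are not compared with each other. The spread between the groups took 5.65% of the variance of Epcam over the 8 arrays, 13.2% for Cdh2, 14.6% for Jup, 15.0% for Cdh11, 15.6% for Cdh3, 24.6% for Cdh1, 33.4% for Pkp1 and 34.6% for Dsp, with a median of 30.9% over all 13008 genes tested. Dsp and Pkp1 were thus above that median and the other 6 below it. Ptch1, by contrast, had 92.5% of its variance between the groups. The SD over the 8 arrays was 0.83 for Jup and 0.75 for Cdh2, at the 97.7 and 96.7 percentile of all genes tested. It was lowest for Cdh1 and Dsp (both 0.29), at the 62.4 and 62.0 percentile.

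**Figure D1:**
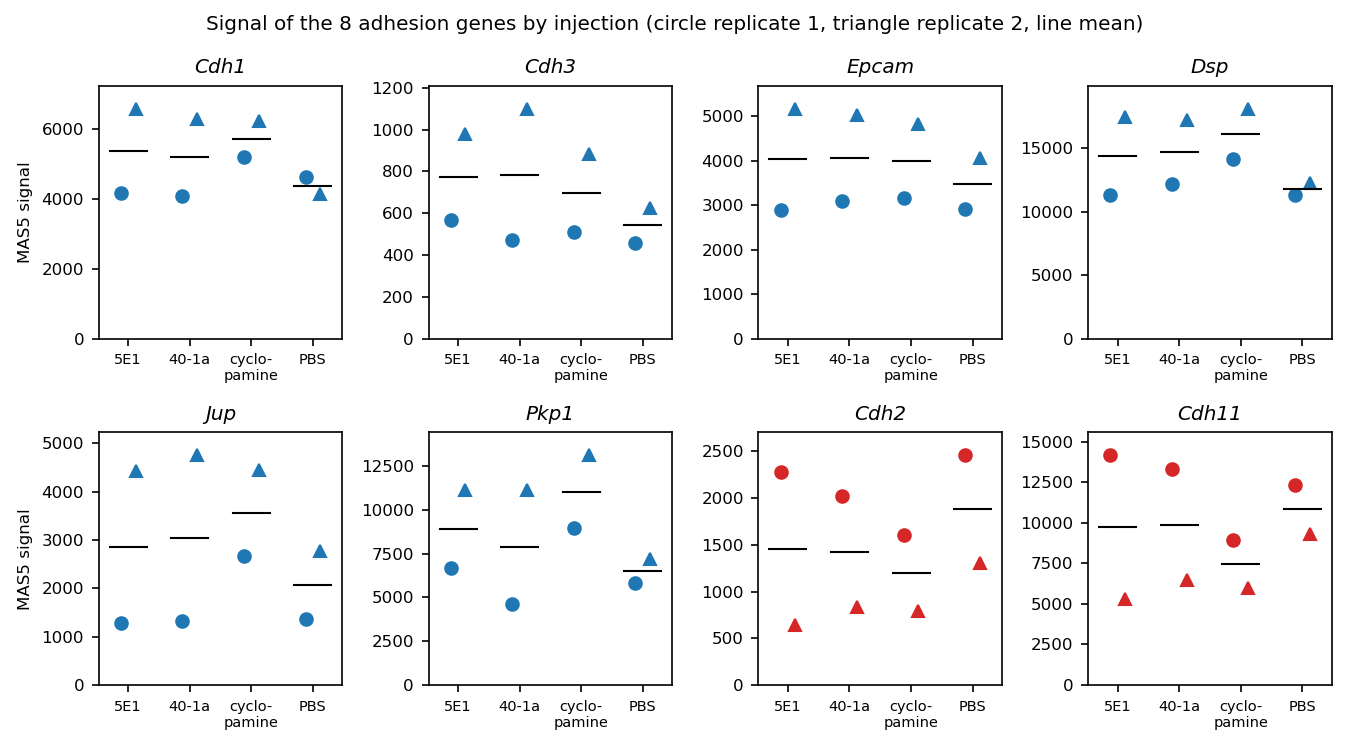
MAS5 signal (linear axis from 0) of the kept probe set of each of the 8 genes, by injection. Circles are replicate 1, triangles replicate 2 and lines the mean of the 2 arrays; blue genes are epithelial and red genes mesenchymal. In the 5E1, 40-1a and cyclopamine groups every epithelial gene was higher and both mesenchymal genes were lower in replicate 2, and the arrays of neighbouring groups in the order of means overlapped for all 8 genes.

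Cdh1 encodes E-cadherin, the cadherin of adherens junctions in epithelia. Its signal was 4181 and 6581 after 5E1, 4093 and 6301 after 40-1a, 5195 and 6225 after cyclopamine, and 4641 and 4132 after PBS (replicate 1, then replicate 2). The arrays of cluster 2 were the 3 highest, and PBS replicate 2 was lower than PBS replicate 1, unlike in the other groups. The order of group means was cyclopamine (5710 ± 729, SD, n = 2), 5E1 (5381 ± 1697), 40-1a (5197 ± 1561) and PBS (4386 ± 360), and no neighbours in this order differed beyond their spread.

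Cdh3 encodes P-cadherin, a classical cadherin of basal epithelial cells, and its gene lies next to Cdh1 with 0 protein-coding genes between them in the RefSeq annotation. Its brighter probe set gave 566.9 and 978.4 after 5E1, 469.1 and 1098 after 40-1a, 509.3 and 881.5 after cyclopamine, and 457.7 and 626.5 after PBS. Replicate 2 was the higher array in all 4 groups. The dimmer probe set ran from 42.4 to 161.3 and did not follow this in the cyclopamine group, where it had 86.6 in replicate 1 and 72.2 in replicate 2.

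Epcam encodes an epithelial surface glycoprotein found along cell borders. Its signal was 2896 and 5169 after 5E1, 3097 and 5043 after 40-1a, 3168 and 4830 after cyclopamine, and 2907 and 4057 after PBS. Replicate 2 was again higher in every group, and the group means lay between 3482 and 4070. The second probe set, with signals from 468.2 to 812.0, had the same sign in all 4 groups.

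Desmosome genes showed the same alternation between replicates. Jup encodes plakoglobin, a catenin found in both desmosomes and adherens junctions. Its signal was 1274 and 4422 after 5E1, 1330 and 4747 after 40-1a, 2667 and 4441 after cyclopamine, and 1357 and 2782 after PBS. The highest array was 3.73 times the lowest, the widest range among the kept probe sets of the 6 epithelial genes. Its replicate 1 arrays of 5E1, 40-1a and PBS were within 1274 to 1357, and its replicate 2 arrays of 5E1, 40-1a and cyclopamine within 4422 to 4747. Jup has no other probe set here, and its probe set has the suffix _s_at, which marks probes shared by more than 1 transcript.

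Pkp1 encodes plakophilin 1, a desmosomal plaque protein of stratified epithelia. Its signal was 6651 and 11103 after 5E1, 4647 and 11140 after 40-1a, 8947 and 13092 after cyclopamine, and 5819 and 7181 after PBS. Both cyclopamine arrays lay above both PBS arrays, and the 2 antibody groups overlapped.

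Dsp encodes desmoplakin, which anchors keratin filaments to the desmosome. The kept probe set gave 11308 and 17463 after 5E1, 12196 and 17227 after 40-1a, 14192 and 18099 after cyclopamine, and 11317 and 12256 after PBS. The other 2 probe sets did not fully follow it. The second, designed from the same sequence record, gave 8563 in 40-1a replicate 2, close to the 8326 of replicate 1. The third, weakest probe set ran from 487.9 in cyclopamine replicate 1 to 4616 in 40-1a replicate 2, a range of 9.46 times. Relative to the kept probe set it was low in cyclopamine replicate 1 by 2.09 on the log2 scale, while its values on the other 7 arrays lay between 1507 and 4616. The difference between cyclopamine and PBS was therefore 0.44 (SE 0.25) with the kept probe set, 0.51 (SE 0.19) with the second and -0.47 (SE 0.97) with the third, none past the threshold.

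**Figure D2:**
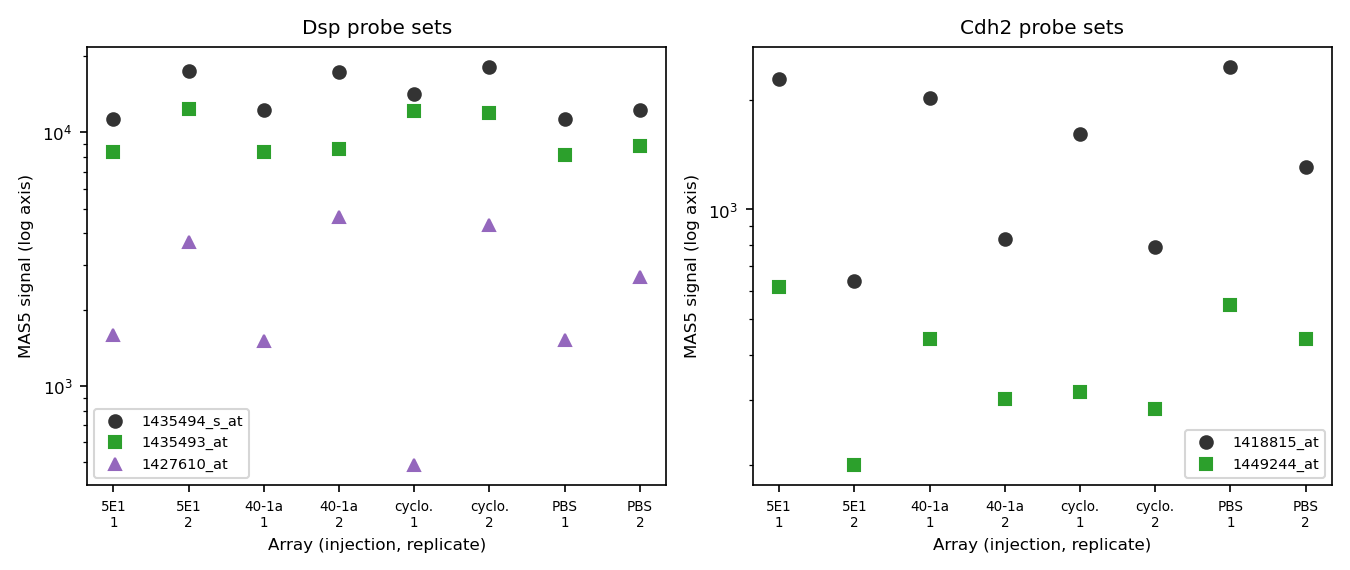
MAS5 signal (log axis) of the 3 Dsp probe sets and the 2 Cdh2 probe sets on each of the 8 arrays, labelled by injection and replicate. The weakest Dsp probe set stands at 487.9 in cyclopamine replicate 1, where the kept probe set stands at 14192, whereas both Cdh2 probe sets are lower in replicate 2 of every group.

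The promoters of Epcam, Dsp and Jup are shown because, of the 6 epithelial genes, which were all higher in cluster 2 than in cluster 1, these 3 had an entry in the promoter table used here. Each window holds the 250 bases before the start site of its entry (RefSeq, GRCm38.p6), at chr17:87635729-87635978 (plus strand), chr13:38151044-38151293 (plus strand) and chr11:100397791-100398040 (minus strand). Each is written 5′ to 3′ on the strand of the gene, with capitals for the E-box CACCTG, to which Snail and Zeb repressors can bind, and the GC box GGGCGG, a site for Sp1, each searched on both strands. The matches in these windows do not overlap each other. The Jup gene begins at 100397839 in the RefSeq annotation, upstream of the start site of its entry, so part of the Jup window lies within the gene.
Epcam: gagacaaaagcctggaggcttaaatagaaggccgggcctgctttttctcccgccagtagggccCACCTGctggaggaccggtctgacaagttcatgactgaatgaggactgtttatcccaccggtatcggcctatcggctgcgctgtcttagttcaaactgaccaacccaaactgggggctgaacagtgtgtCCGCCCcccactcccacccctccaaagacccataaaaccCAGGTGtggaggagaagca
Dsp: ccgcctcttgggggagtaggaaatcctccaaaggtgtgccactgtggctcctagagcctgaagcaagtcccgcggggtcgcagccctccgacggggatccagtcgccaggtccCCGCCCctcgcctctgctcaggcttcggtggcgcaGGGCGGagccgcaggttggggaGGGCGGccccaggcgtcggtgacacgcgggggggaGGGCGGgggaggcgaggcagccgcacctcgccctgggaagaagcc
Jup: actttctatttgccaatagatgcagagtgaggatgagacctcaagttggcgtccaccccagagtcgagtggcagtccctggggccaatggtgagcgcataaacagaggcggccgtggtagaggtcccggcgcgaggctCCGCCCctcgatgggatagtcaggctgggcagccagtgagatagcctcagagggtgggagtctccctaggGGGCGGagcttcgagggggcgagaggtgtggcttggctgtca
The Epcam window held 2 E-boxes, at -187 and -19 from the start site, and 1 GC box. The Dsp window held 4 GC boxes and the Jup window 2, and the letters CACCTG or CAGGTG were in neither. Of 32851 promoter windows of this length, 17.2% held an E-box of these letters and 32.7% a GC box. The grainyhead motif AACCGGTT, bound by Grhl activators, was in 0.116% of them and in none of these 3. The GC content was 56.4% for Epcam, 72.4% for Dsp and 62.0% for Jup, against a median of 52.4%. A match is a string of letters and does not show binding.

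Both mesenchymal genes ran the opposite way. Cdh2 encodes N-cadherin, the cadherin of condensing mesenchyme, nerve and muscle. Its brighter probe set gave 2281 and 637.7 after 5E1, 2023 and 832.2 after 40-1a, 1605 and 790.1 after cyclopamine, and 2456 and 1305 after PBS. Replicate 2 was the lower array in all 4 groups with both probe sets, and the group means (1197 to 1880) lay within the spread of each other. Cdh11 encodes OB-cadherin, a cadherin of mesenchyme and osteoblasts. Its signal was 14142 and 5309 after 5E1, 13280 and 6458 after 40-1a, 8942 and 5961 after cyclopamine, and 12346 and 9299 after PBS. Its 3 lowest arrays were those of cluster 2 and its 3 highest those of cluster 1. The second probe set ran from 377.7 to 1519 with the same sign in every group.

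Of the 6 epithelial genes, 5 were higher in replicate 2 in all 4 groups, which was so for 14.3% of all genes tested. Both mesenchymal genes were lower in replicate 2 in all 4 groups, as were 18.8% of all genes tested. Cdh1 was the exception, at -0.17 in the PBS group. Between the clusters the contrast was complete. All 6 epithelial genes had every array of cluster 2 above every array of cluster 1 (24.5% of all genes tested), and both mesenchymal genes had every array below (24.2%). The mean difference was 1.77 for Jup, 1.06 for Pkp1, 0.97 for Cdh3, 0.76 for Epcam, 0.60 for Dsp and 0.57 for Cdh1, against -1.57 for Cdh2 and -1.17 for Cdh11. With quantile normalization and with median centring these 8 differences kept their signs, while the median over all genes tested went from -0.02 to 0.02 and 0.20. The clusters come from the same arrays, so these values are a description and no test was made.

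**Figure D3:**
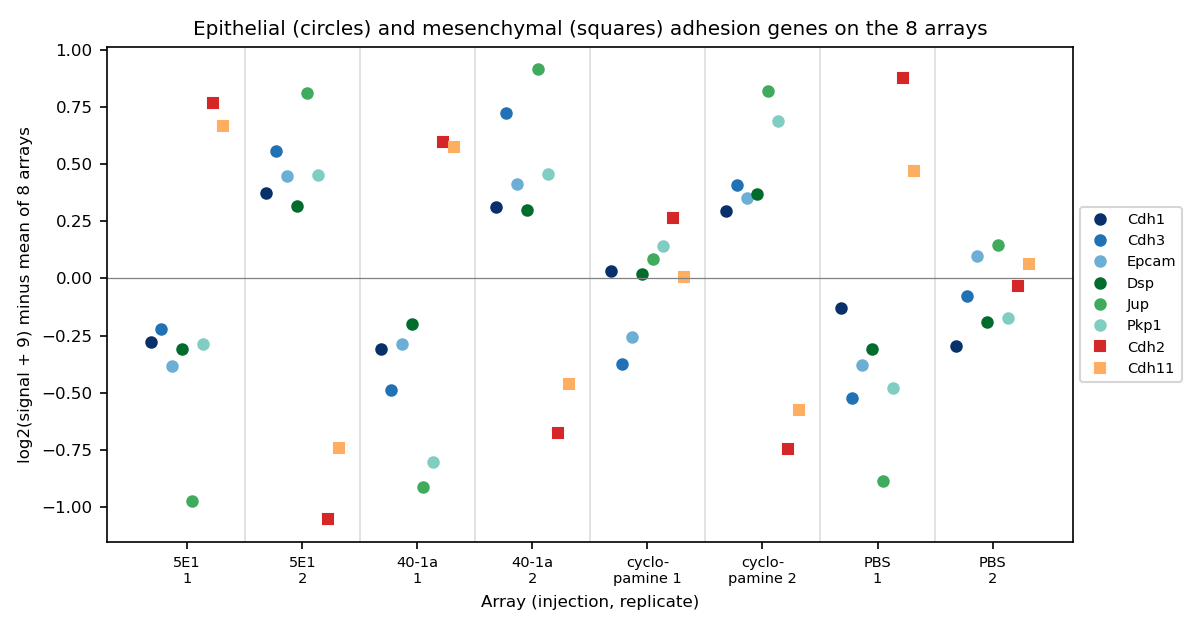
log2(signal + 9) of each gene minus its mean over the 8 arrays, by array (injection, replicate). Circles are the 6 epithelial genes and squares the 2 mesenchymal genes; in replicate 2 of 5E1, 40-1a and cyclopamine all circles lie above 0 and both squares below, and in replicate 1 of 5E1, 40-1a and PBS the order is turned.

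An adhesion balance was taken for each array as the mean log2 value of the 6 epithelial genes minus that of the 2 mesenchymal genes, set to a mean of 0 over the 8 arrays. It was -1.13 and 1.39 after 5E1, -1.09 and 1.09 after 40-1a, -0.19 and 1.15 after cyclopamine, and -1.12 and -0.10 after PBS. The 3 arrays of cluster 1 were within -1.13 to -1.09, those of cluster 2 within 1.09 to 1.39, and the 2 of cluster 3 lay between. The group means were 0.13 ± 1.78 (SD, n = 2) for 5E1, 0.00014 ± 1.54 for 40-1a, 0.48 ± 0.95 for cyclopamine and -0.61 ± 0.73 for PBS. All 4 groups overlapped their neighbours.

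Tissue markers outside the 8 genes also differed between clusters 1 and 2. Apart from Lamb3 and Cdh5, the tested marker genes were among those the clusters were drawn from. Their differences between the clusters are therefore partly built in, and are given as a description without a test. In cluster 2 all 10 tested genes of dental epithelium (median 0.71), all 10 of suprabasal oral epithelium (1.44) and all 12 of skeletal muscle (1.54) were higher than in cluster 1. All 12 genes of dental mesenchyme were lower (-0.88), as were all 7 of endothelium (-0.53; 6 of 7 with quantile normalization or median centring) and all 4 of leukocytes (-0.82). Over all 13008 genes tested, 6285 were higher in cluster 2 and 6723 lower, with a median of -0.02. Every array of cluster 2 lay above every array of cluster 1 for 24.5% of all genes tested. This held for 8 of the 10 dental epithelium genes, all 10 suprabasal oral epithelium genes and 4 of the 12 muscle genes. The reverse held for 24.2% of all genes tested. Among the markers it held for 10 of the 12 dental mesenchyme genes, 4 of the 7 endothelium genes and 3 of the 4 leukocyte genes. Muscle markers did not follow the adhesion balance within every group: their median centred level was 0.09 and 0.13 after 5E1, and -0.08 and -0.98 after PBS (replicate 1, then replicate 2). The 3 bone genes tested had a median of only -0.18, with a sign that turned under median centring (0.03), although Cdh11 is an osteoblast cadherin too. The summed signal of the dental epithelium markers ran from 66872 to 110606 after 5E1, 66176 to 106294 after 40-1a, 82161 to 108047 after cyclopamine and 63355 to 76385 after PBS. That of the dental mesenchyme markers ran from 52580 to 109595, 68245 to 103068, 69763 to 92354 and 92589 to 103509 in the same order. Skeletal muscle markers summed to 4925 to 5891, 1452 to 12658, 3282 to 14851 and 2434 to 5627. The part of tissue make-up in the values of the adhesion genes was not tested.

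**Figure D4:**
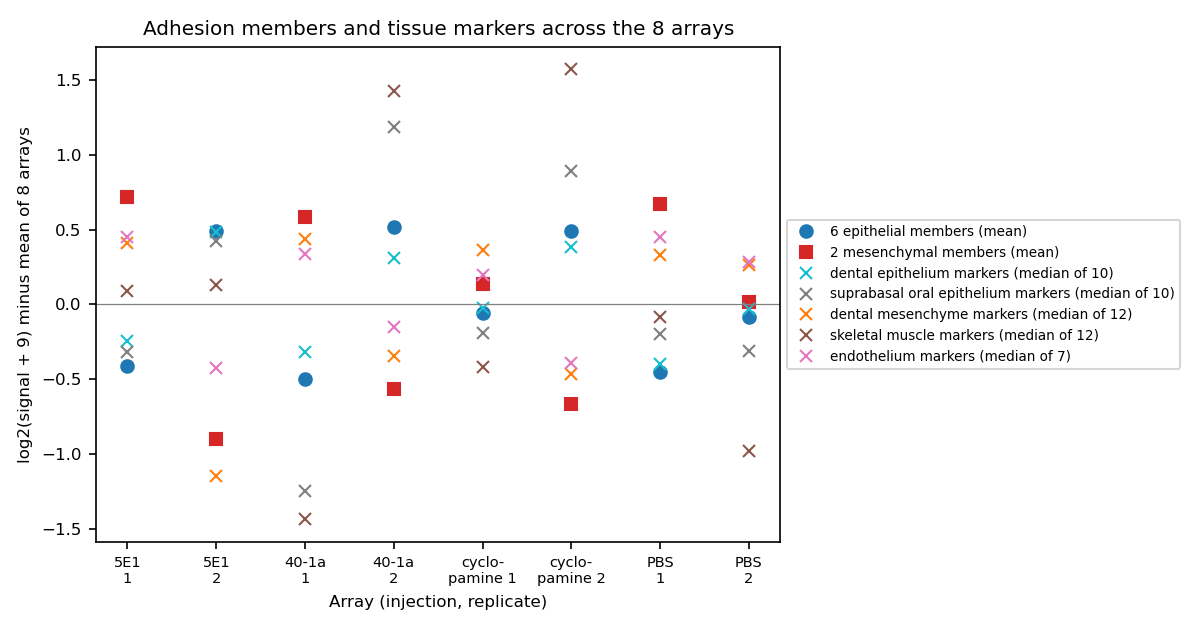
log2(signal + 9) minus the mean of 8 arrays, by array: mean of the 6 epithelial genes (circles), mean of the 2 mesenchymal genes (squares) and the median of each tissue marker list (crosses, number of genes in the legend). Dental epithelium markers lie beside the epithelial genes on every array, and muscle markers reach 1.43 in 40-1a replicate 2 and 1.57 in cyclopamine replicate 2.

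Setting 5E1 beside 40-1a addresses the loss of Shh ligand activity. No difference was detectable for any of the 8 genes. The log2 differences were 0.05 for Cdh1 (SE 0.27, 95% interval -0.58 to 0.67), 0.05 for Cdh3 (-1.02 to 1.12), -0.03 for Epcam (-0.87 to 0.81), -0.04 for Dsp (-0.62 to 0.53), -0.08 for Jup (-1.79 to 1.63), 0.26 for Pkp1 (-0.72 to 1.23), -0.10 for Cdh2 (-1.67 to 1.47) and -0.10 for Cdh11 (-1.24 to 1.05). With the kept probe sets, the intervals of Cdh1, Epcam and Dsp leave out both a doubling and a halving. That of Pkp1 leaves out a halving, and those of the other 4 leave out neither. These intervals come from the fit without a block, so the difference between clusters 1 and 2 adds to their width. The other probe sets gave 0.27 (SE 0.19) and -0.13 (SE 0.97) for Dsp and 0.18 (SE 0.29) for Epcam. They gave 0.59 (SE 0.61) for Cdh3, 0.19 (SE 0.70) for Cdh11 and -0.06 (SE 0.47) for Cdh2. With limma 0 of the 8 passed an adjusted p of 0.05 (each 1.00), as did 0 of all 13008 genes tested (0%), and 0 of the 8 had an unadjusted p under 0.05, against 159 genes (1.22%). Values above 0 were found for 3 of the 6 epithelial genes and neither mesenchymal gene (46.7% of all genes tested were above 0 and 53.3% below). The arrays of the 2 groups overlapped for all 8 genes, where 19.4% of all genes tested did not overlap (8.66% higher and 10.8% lower after 5E1).

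The antibody groups could also be compared within clusters 1 and 2. In cluster 1 the difference between 5E1 and 40-1a was 0.03 for Cdh1, -0.06 for Jup, -0.10 for Epcam, -0.11 for Dsp, 0.27 for Cdh3 and 0.52 for Pkp1, and 0.17 for Cdh2 and 0.09 for Cdh11. In cluster 2 it was 0.06, -0.10, 0.04, 0.02, -0.17 and -0.00 for the 6 epithelial genes in that order, and -0.38 and -0.28 for Cdh2 and Cdh11. Each of these is a difference of 2 arrays with no replicate. The difference between the clusters was 1.77 for Jup and -1.57 for Cdh2, while for Pkp1 the 0.52 within cluster 1 stood against 1.06 between the clusters. With 1 array left out the pairs no longer matched, and the difference of Jup ran from -0.996 (without 40-1a replicate 1) to 0.83 (without 40-1a replicate 2) and that of Cdh2 from -1.02 (without 5E1 replicate 1) to 0.81 (without 5E1 replicate 2).

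Cyclopamine against PBS addresses inhibition inside the receiving cell, at Smo. All 6 epithelial genes had values above 0 (53.1% of all genes tested) and both mesenchymal genes below (46.9%), and 0 of the 8 passed. Jup was at 0.82 (SE 0.74, 95% interval -0.89 to 2.53), Pkp1 at 0.74 (SE 0.42, -0.23 to 1.72), Dsp at 0.44 (SE 0.25, -0.14 to 1.02), Cdh1 at 0.38 (SE 0.27, -0.25 to 1.00), Cdh3 at 0.32 (SE 0.46) and Epcam at 0.19 (SE 0.36). Cdh2 was at -0.66 (SE 0.68, -2.23 to 0.91) and Cdh11 at -0.55 (SE 0.49, -1.70 to 0.59). The limma adjusted p was 0.983 for each of the 8, limma called 0 of all genes tested (0%), and 0 of the 8 against 205 genes (1.58%) had an unadjusted p under 0.05 with the kept probe sets. The second Dsp probe set had an unadjusted p of 0.025 and a limma adjusted p of 0.965. Both cyclopamine arrays lay above both PBS arrays for Cdh1, Dsp and Pkp1 (17.8% of all genes tested) and below them for Cdh11 (14.4%), 4 of the 8 genes in all against 32.2% of all genes tested. Dental epithelium markers were higher in 9 of 10 cases (median 0.44), skeletal muscle markers in 12 of 12 (1.14), and dental mesenchyme markers lower in 11 of 12 (-0.28). With the array clusters as a block these counts were 6 of 10 higher for dental epithelium (0.09), 7 of 12 higher for muscle (0.23) and 10 of 12 higher for dental mesenchyme (0.12), so that the last turned. Without cyclopamine replicate 2, muscle markers were higher in 7 of 12 cases (0.07). Only cyclopamine had an array in cluster 2, and only PBS had one in cluster 1. With the array clusters as a block the signs of Cdh3 (-0.20), Epcam (-0.23), Jup (-0.08), Cdh2 (0.15) and Cdh11 (0.04) turned, and Cdh1 was at 0.11, Dsp at 0.17 and Pkp1 at 0.26. Within cluster 3, from 1 array of each group, Cdh1 differed by 0.33, Pkp1 by 0.32, Dsp by 0.21, Jup by -0.06, Cdh3 by -0.29 and Epcam by -0.36, with Cdh2 at 0.30 and Cdh11 at -0.06. Without cyclopamine replicate 2 the median of the 6 epithelial genes was 0.26 in place of 0.41, with Cdh3 (-0.07) and Epcam (-0.12) below 0. Without PBS replicate 1 Epcam was at -0.05. Without cyclopamine replicate 1 the median was 0.66.

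**Figure D5:**
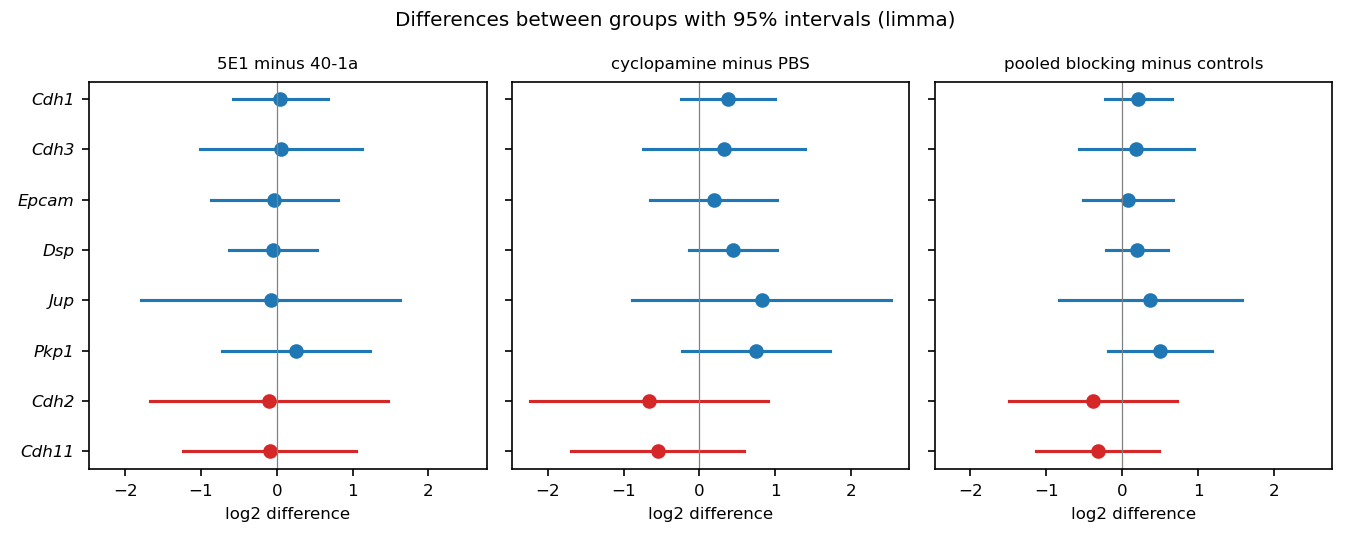
log2 difference of each gene (points) with its 95% interval from the limma fit (bars), for 5E1 minus 40-1a, cyclopamine minus PBS, and both blocking agents pooled minus both controls pooled. All 24 intervals include 0, and the points of the antibody comparison lie between -0.10 and 0.26.

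With both blocking agents set against both controls, 4 arrays a side, the 8 genes showed no detectable difference either. Again all 6 epithelial genes lay above 0 (51.4% of all genes tested) and both mesenchymal genes below (48.6%). These signs rested on single arrays: 5 of the 8 turned without 5E1 replicate 2 and 3 without 40-1a replicate 1, and 4 turned with the array clusters as a block. Without 5E1 replicate 2, Cdh1 was at 0.048 and Dsp at 0.043. Pkp1 had the largest value, 0.50 (SE 0.30, 95% interval -0.19 to 1.19), and the other 5 epithelial genes lay between 0.08 and 0.37, with Cdh2 at -0.38 (SE 0.48) and Cdh11 at -0.32 (SE 0.35). Limma called 0 of the 8 and 0 of all genes tested (0%), with 0 of the 8 and 159 genes (1.22%) at an unadjusted p under 0.05 with the kept probe sets, and no gene of the 8 had separate arrays (1.37% of all genes tested). The second Dsp probe set was at 0.39 (SE 0.13, unadjusted p = 0.018, limma adjusted p = 1.00), against 0.20 with the kept probe set. The value of Pkp1 was 0.18 without 40-1a replicate 1 and 0.81 without 40-1a replicate 2. The antibody effect minus the cyclopamine effect was -0.90 (SE 1.04) for Jup, -0.49 for Dsp and Pkp1 (SE 0.35 and 0.59), -0.33 (SE 0.38) for Cdh1, -0.27 (SE 0.65) for Cdh3 and -0.22 (SE 0.51) for Epcam, and 0.56 (SE 0.96) for Cdh2 and 0.46 (SE 0.70) for Cdh11. Limma called 0 of the 8 and 0 of all genes tested, and 187 genes (1.44%), none of the 8, had an unadjusted p under 0.05. An F-test in the same fit for any difference among the 4 groups gave unadjusted p-values from 0.372 (Pkp1) to 0.935 (Epcam) in limma, where 131 genes (1.01%) had a p under 0.05.

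Other junction genes followed the epithelial side. For each list the counts below are of tested genes, and limma passed 0 genes of any list in any comparison. Over all 13008 genes tested, 6285 were higher in cluster 2 than in cluster 1. Without a block, 6910 of them were above 0 after cyclopamine, 6070 after 5E1 and 6680 in the pooled comparison. With the array clusters as a block, the genes above 0 after cyclopamine numbered 6 of 12 other desmosome genes, 6 of 12 adherens junction partners, 3 of 14 tight junction genes, 5 of 8 hemidesmosome genes, 5 of 11 activators and 5 of 7 repressors, against 11, 10, 12, 7, 10 and 1 without the block. Of 12 other desmosome genes, 11 were higher in cluster 2 than in cluster 1 (median 0.92). After cyclopamine 11 of 12 were above 0 (median 0.39), and after 5E1 against 40-1a 8 of 12 (median 0.04). Dsg2, a desmosomal cadherin, had signals of 4094 and 5520 after 5E1, 3316 and 4519 after 40-1a, 4065 and 4823 after cyclopamine, and 3379 and 3339 after PBS. Its pooled difference of 0.35 (SE 0.15) had an unadjusted p of 0.0475 and a limma adjusted p of 1.00. Dsg2 was named for the smallest p of its list in that comparison. Dsc3, a desmosomal cadherin, was at 0.48 (SE 0.25), the plaque gene Pkp3 at 0.40 (SE 0.28), and the desmosomal cadherin Dsg1b at 0.41 (SE 0.39). Against PBS, cyclopamine gave 0.78 (SE 0.40) for Pkp3 and -0.02 (SE 0.55) for Dsg1b.

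Adherens junction partners were less uniform. In cluster 2, 9 of 12 were higher (median 0.57). Against 40-1a, 9 of 12 lay below 0 after 5E1 (median -0.05; 4 of 12 with median centring), and against PBS 10 of 12 lay above 0 after cyclopamine (median 0.25). Afdn, the afadin gene that links nectins to actin, had a cyclopamine difference of 0.48 (SE 0.28) and an antibody difference of -0.06 (SE 0.28). Plekha7, a junctional plaque gene, was at 0.44 (SE 0.37) and -0.07 (SE 0.37). The catenin genes Ctnna2 and Ctnnd2, both known from neurons, had pooled differences of 0.50 (SE 0.29) and 0.31 (SE 0.20), where 8 of the 12 partners were above 0 and 4 below.

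Tight junction genes, which seal epithelia, were higher in cluster 2 in 13 of 14 cases (median 0.62) and positive after cyclopamine in 12 of 14 (median 0.25). Marveld3 (pooled difference 0.52, SE 0.28) and the claudin genes Cldn3 (0.61, SE 0.43) and Cldn4 (0.29, SE 0.23) did not pass, nor did the cingulin gene Cgn (0.35, SE 0.32). In that comparison 10 of the 14 tight junction genes were above 0 and 4 below, among them Cldn1 (-0.19, SE 0.18). Of 8 genes of hemidesmosomes and basement membrane adhesion, 7 were higher in cluster 2 (median 0.77), and 7 were positive after cyclopamine (median 0.62). Col17a1, a hemidesmosomal collagen, had 1711 and 4328 after 5E1, 1839 and 4382 after 40-1a, 3291 and 4395 after cyclopamine, and 1637 and 2660 after PBS. Its array pattern resembled that of Jup. Lamb3, a laminin chain, had a pooled difference of 0.41 (SE 0.38), Plec, the plectin gene, 0.29 (SE 0.17), and the tetraspanin gene Cd151 0.20 (SE 0.14).

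Regulators known to act on epithelial adhesion genes divided the same way. The list here called activators takes in splicing factors beside transcription factors, and not every member need activate transcription. All 11 tested genes of that list were higher in cluster 2 (median 0.97). Esrp2, a splicing factor of epithelia, had 862.2 and 2470 after 5E1, 701.9 and 2161 after 40-1a, 1160 and 2427 after cyclopamine, and 758.9 and 1206 after PBS. Esrp1, its relative, and the grainyhead genes Grhl1 and Grhl2 had pooled differences of 0.26 (SE 0.20), 0.54 (SE 0.46) and 0.20 (SE 0.13), and none passed. All 7 repressors of epithelial cadherin were lower in cluster 2 (median -0.81; 6 of 7 with quantile normalization or median centring). Zeb2 had 755.9 and 238.9 after 5E1, 886.9 and 326.3 after 40-1a, 676.5 and 222.8 after cyclopamine, and 1044 and 497.5 after PBS. Replicate 2 was the lower array in each group, as for Cdh2. Twist2 (pooled difference -0.67, SE 0.45), Twist1 (-0.53, SE 0.40) and Snai1 (-0.35, SE 0.30) did not pass. In that comparison 5 of the 7 repressors were below 0 and 2 above, namely Snai2 (0.08, SE 0.18) and Snai3 (0.04, SE 0.29).

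Other cadherins did not move as a uniform group. Of 18 listed, 16 had a probe set of their own and 8 passed the filter. In cluster 2, 3 were higher and 5 lower (median -0.25), and after both blocking agents together 2 were above 0 and 6 below (median -0.22). Cdh6 had 253.2 and 216.8 after 5E1, 309.0 and 274.5 after 40-1a, 218.1 and 234.9 after cyclopamine, and 308.7 and 282.1 after PBS. All 4 arrays of the blocking agents lay below all 4 control arrays, as for 0.753% of all genes tested. The pooled difference was -0.34 (SE 0.16), with a limma adjusted p of 1.00. Cdh6 was named for the smallest p of its list in that comparison, so its separation is not independent of the choice. Cdh22 (-0.56, SE 0.35), Cdh20 (-0.55, SE 0.39) and Cdh13, which lacks a cytoplasmic tail (0.16, SE 0.21), did not pass.

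The genes most like Cdh1 and Cdh11 were found as those with the smallest mean absolute log2 difference from it over the 8 arrays, after each gene's mean was subtracted. For Cdh1 these were Ripk4 (0.058), Dennd2c (0.059), Mov10 (0.065), Dbi (0.066) and Hspa1b (0.067), where the mean absolute deviation of Cdh1 itself was 0.25. Ripk4 encodes a kinase of keratinocyte differentiation. For Cdh11, with a mean absolute deviation of 0.45, they were Steap2 (0.050), the fibrillar collagen gene Col5a2 (0.066), Plvap of fenestrated endothelium (0.077), Cped1 (0.078) and Hecw2 (0.082). The likeness is over arrays of different injections and clusters, and no other property of these genes was used.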

How the data were processed

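Total RNA of 8 samples was measured on an Affymetrix mouse array, 1 array per sample. Each deposited value is the intensity of a probe set, not log-transformed, which the authors computed with MAS5 according to the submitters' processing notes. Its version and scaling target, and any batches, were not given in the sources used here. On every array the mean after trimming 2% at each end was 500.0, so no scaling was added. Precision is limited by how few arrays there are (4 residual degrees of freedom, and fewer with a block).

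Of 45101 probe sets, 34945 had exactly 1 gene in the platform annotation of 2016. These cover 18193 genes, each represented by its brightest probe set on average, and genes under the 40th percentile of probe set means (a signal of 60.3) were left out, leaving 13008. Values were taken as log2(signal + 9), 9 being the 10th percentile, which understates the changes of weak genes. Limma 3.58.1 in R 4.3.3 fitted 4 group means to all 8 arrays, with eBayes and a trend, and p-values were adjusted over 13008 genes by Benjamini-Hochberg. The fit was tested on simulated data with independent noise on each array. Those data held no array clusters, so that test does not cover shifts that arrays share.

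The 8 genes were named in full. From each of 7 adhesion lists up to 4 genes were named by p in the pooled comparison, and the 9 marker lists are given as counts or sums. The 5 genes most alike were named for Cdh1 and Cdh11. The genes and lists were chosen with earlier results of these data known. The marker lists of nerve and Schwann cells and of erythroid cells had 3 and 1 genes tested, with medians of 0.24 and -0.38 between clusters 2 and 1. Alternatives were 2 scalings, 2 pseudocounts, 2 filters, 2 rules for probe sets, no trend, 2 blocks, the compared groups alone and each array left out.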

Additional observations from a re-analysis of the deposited data

How the results depend on the processing

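None of the 8 genes passed in the antibody, cyclopamine or pooled comparison, or in the difference between the effects, under any alternative run. Their lowest limma adjusted p was 0.994 for 5E1 against 40-1a, 0.702 for cyclopamine against PBS and 0.843 for the pooled comparison, and their lowest unadjusted p was 0.036, 0.0070 and 0.0077. Over all genes, the replicate block called 1 gene for 5E1 against 40-1a, 1 for the pooled comparison (both Ptch1) and 1 for any difference among the groups. The array cluster block called 3, 2 and 2 genes for these and 3 for the difference between the effects. None of the called genes was among the 8, except that those called for any difference among the groups were not listed by name. That block was drawn from the same arrays, so its calls are a description. The other settings called 0. Deviations of same-numbered arrays correlated at 0.32 to 0.59 except for cyclopamine with PBS (0.0016), and cyclopamine replicate 1 clustered with PBS replicate 2, so the numbers were not taken as a pairing, although 7 of the 8 genes had 1 sign between replicates in all 4 groups. With the replicate block the adjusted p of Ptch1 was 0.0052 for 5E1 against 40-1a.

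For 5E1 against 40-1a, where all values were near 0, signs turned for Epcam (0.046) and Dsp (0.032) with median centring, for Epcam (0.073), Dsp (0.032) and Cdh11 (0.048) with the mean of probe sets, and for Dsp (0.27) without x and s probe sets. With an array left out the values ran from -0.28 to 0.37 for Cdh1, -0.55 to 0.66 for Cdh3, -0.45 to 0.39 for Epcam, -0.36 to 0.27 for Dsp, -0.996 to 0.83 for Jup, -0.37 to 0.89 for Pkp1, -1.02 to 0.81 for Cdh2 and -0.80 to 0.61 for Cdh11. For cyclopamine against PBS the array cluster block turned Cdh3 (-0.20), Epcam (-0.23), Jup (-0.078), Cdh2 (0.15) and Cdh11 (0.037), and leaving out an array gave -0.072 to 0.71 for Cdh3 and -0.12 to 0.49 for Epcam. In the pooled comparison the block turned Cdh3 (-0.075), Epcam (-0.13), Jup (-0.080) and Cdh2 (0.022). Leaving out an array gave -0.12 to 0.49 for Cdh3, -0.13 to 0.29 for Epcam, -0.087 to 0.83 for Jup, -0.84 to 0.072 for Cdh2 and -0.68 to 0.029 for Cdh11. The cause was not tested. The adhesion balance of each array moved by less than the SD between the 2 arrays of its group under all 6 alternatives run. Median centring could not move it, since it shifts all genes of an array alike. That SD was wide (0.73 for PBS to 1.78 for 5E1), so only a large move could have exceeded it. Median centring put the median of all genes at 0.06, 0.15 and 0.11 in the 3 comparisons, against -0.01, 0.02 and 0.01 as deposited. Jup has no value without x and s probe sets.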
